A study of Caenorhabditis elegans with 18 samples.

Results

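Chaperones fold newly made proteins and refold damaged ones, and 8 genes of the nematode Caenorhabditis elegans that encode them are described here. hsp-1, daf-21, hsp-110 and hsp-70 serve the cytosol and nucleus, hsp-3 and hsp-4 the endoplasmic reticulum, and hsp-6 and hsp-60 the mitochondria. The genes were taken by symbol from a table of read counts per protein-coding gene, together with all of their intervals in a table of read counts per intron. 7 symbols were found as such, and daf-21 is listed under its current name, hsp-90. These are 8 of 20191 genes and 28 of 106818 intron intervals. The transcripts used to number their introns hold 32 introns, 1 transcript per gene. Of these, 4 are not analysed here, namely intron 2 of hsp-1, intron 1 of hsp-3, intron 2 of hsp-60 and intron 1 of daf-21. Over all of its transcripts hsp-60 has 6 annotated introns, and 4 of them are intervals here.

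The animals were young adult hermaphrodites whose embryos had not yet formed, and every group carries the alleles mog-7::degron::gfp and sun-1p::TIR1::mRuby. MOG-7, a factor of pre-mRNA splicing, is fused to a degron, and the sun-1 promoter drives the plant protein TIR1 in the germline, so that auxin triggers loss of the tagged protein there. The groups are auxin for 2 h, auxin for 1 h and ethanol for 2 h, with 6 libraries each. Each of 6 batches (I, II, V, VII, VIII, X) supplied 1 library per group. RNA came from worms with all their tissues. Animals without the degron or TIR1 are not analysed here, so an action of auxin and the loss of MOG-7 cannot be told apart. In such bulk RNA, fewer cells of a type and less RNA per cell cannot be told apart either. Nothing in the labels says whether the libraries come from separate cultures, so the p-values measure the spread between these libraries.

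Hsp70 proteins bind unfolded stretches of protein in a cycle driven by ATP, J-domain proteins bring them their clients, and exchange factors such as Hsp110 release the nucleotide. Hsp90 takes over partly folded clients such as kinases, and the barrel-shaped Hsp60 encloses mitochondrial proteins while they fold. HSP-1 is the constitutive cytosolic Hsp70 of the worm, HSP-3 and HSP-4 are its BiP proteins in the endoplasmic reticulum, and HSP-6 is the mitochondrial Hsp70. Transcription of hsp-4 is known to respond to unfolded proteins in the endoplasmic reticulum, that of hsp-6 and hsp-60 to mitochondrial stress, and that of hsp-70 to heat. Introns are removed from pre-mRNA by the spliceosome, and intron reads in poly-A selected RNA come from transcripts that still hold an intron.

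On the WBcel235 assembly the cytosolic genes lie on chromosome IV from 17278959 to 17281330 on the plus strand (hsp-1, WBGene00002005), chromosome V from 14684918 to 14688545 on the plus strand (daf-21, WBGene00000915), chromosome III from 8443910 to 8446909 on the minus strand (hsp-110, WBGene00016250) and chromosome I from 9320325 to 9322519 on the minus strand (hsp-70, WBGene00002026). Of the genes for the endoplasmic reticulum, hsp-3 (WBGene00002007) lies on the minus strand of chromosome X from 6089028 to 6092124 and hsp-4 (WBGene00002008) on the minus strand of chromosome II from 7350112 to 7352645. hsp-6 (WBGene00002010) lies on the minus strand of chromosome V from 4824124 to 4826760, and hsp-60 (WBGene00002025) on the plus strand of chromosome III from 1619742 to 1625803. hsp-70 sits inside uggt-2, which runs on the opposite strand, and the first part of daf-21 overlaps C47E8.4, also on the opposite strand. The 28 intervals equal annotated introns of 43 to 1239 bases, and 23 of them are 110 bases or shorter. Intron 1 of hsp-4 lies outside the coding part, and the other intervals lie between coding exons.

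Gene reads per library ranged from 18153020 to 30747645 and intron reads from 186471 to 885408. Intron reads per 1000 gene reads were 31.3 to 38.1 after 2 h, 25.6 to 29.98 after 1 h and 10.2 to 10.9 with ethanol. The mRNA of the targeted gene mog-7 was at 42.6 ± 2.71 (CPM, reads scaled to a common library total) after 2 h, 39.5 ± 3.21 CPM after 1 h and 39.5 ± 1.75 CPM with ethanol (SD, n = 6 each). Its log2 change against ethanol was 0.11 at 2 h and 0.00 at 1 h (edgeR adjusted p = 0.136 and adjusted p = 0.997), and a fit that blocks on batch put the 2 h value past the threshold (adjusted p = 0.0162). The degron acts on the protein, which was not measured, so these counts do not check the depletion. Markers of zygotic embryos summed to 0.169 to 0.441 CPM after 2 h, 0.157 to 0.493 CPM after 1 h and 0.106 to 0.718 CPM with ethanol, and 0 of the 8 markers passed the filter on low counts.

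Of the 8 chaperone mRNAs, hsp-60 rose at 2 h, and the others did not pass at either time in the fit without the batch. With the batch as a block, hsp-1, hsp-3 and hsp-4 also passed at 2 h, as higher, and hsp-70 passed at 1 h, as lower. All 8 genes passed the filter on low counts. At 2 h, 1 of 8 was higher than with ethanol and 0 were lower by the quasi-likelihood test of edgeR at an adjusted p under 0.05, where 34.6% of the 13969 genes tested were called (14.5% higher and 20.1% lower). At 1 h, 0 of 8 were called by edgeR against 10.6% of all genes (3.62% higher and 6.93% lower), and between 2 h and 1 h 0 of 8 against 6.89% (2.94% higher and 3.95% lower). At an unadjusted p under 0.05 the count was 1 at 1 h (hsp-70) and 1 between 2 h and 1 h (hsp-60). The share over all genes was not counted at that threshold. DESeq2 called 0 of 8 at 1 h and 0 of 8 between 2 h and 1 h, beside 1664 and 1366 of all 13969 genes. The median log2 change of the 8 genes was 0.07 at 2 h and 0.05 at 1 h, beside 0.07 and 0.00 over all genes tested. The libraries of a batch pair the groups. With the batch as a block, 4 of 8 were higher at 2 h (56.8% of all genes called, 30.2% higher), 1 of 8 was lower at 1 h (30.7% called, 18.2% lower) and 2 of 8 were higher at 2 h than at 1 h (32.7% called, 16.40% higher).

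**Figure D1:**
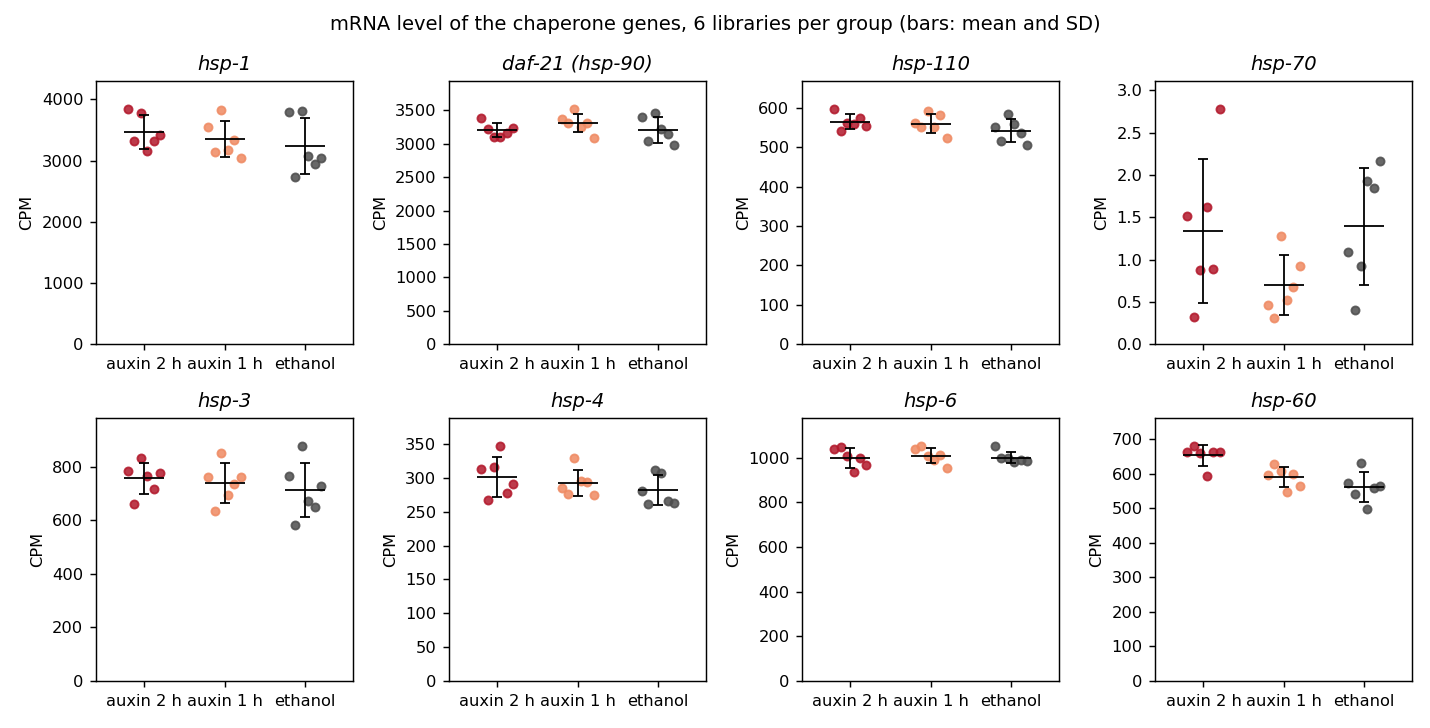
Level of each chaperone mRNA in CPM in the 6 libraries of each group, with the mean and SD as bars. The groups overlap in every panel, and hsp-60 lies at 593 to 679.8 CPM after 2 h against 496 to 629 CPM with ethanol.

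hsp-1 and daf-21, both cytosolic, were the most abundant members. hsp-1 had 3155, 3364 and 3837 CPM (lowest, median and highest library) after 2 h, 3047, 3260.5 and 3826 CPM after 1 h and 2728, 3054 and 3810.1 CPM with ethanol. The groups overlapped, with a log2 change of 0.10 at 2 h (SE 0.08, adjusted p = 0.338) and 0.05 at 1 h (SE 0.08, adjusted p = 0.779). The 2 h value was higher in 5 of 6 batches and passed the threshold with the batch as a block (0.11, adjusted p = 0.00987). daf-21, which encodes the cytosolic Hsp90, had 3094, 3193 and 3387 CPM after 2 h, 3093, 3310.0 and 3517 CPM after 1 h and 2974, 3181 and 3457 CPM with ethanol. Its difference from ethanol was -0.174% (95% interval -6.07 to 6.09%, adjusted p = 0.972) at 2 h and 3.19% (95% interval -2.91 to 9.67%, adjusted p = 0.610) at 1 h, and the groups overlapped. hsp-110, the exchange factor of cytosolic Hsp70, had 541, 560.1 and 596 CPM after 2 h, 523, 556 and 592 CPM after 1 h and 505, 543 and 584 CPM with ethanol. Its groups overlapped as well, with 4.06% (95% interval -1.69 to 10.2%, adjusted p = 0.292) at 2 h and 3.25% (95% interval -2.45 to 9.29%, adjusted p = 0.569) at 1 h.

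hsp-70 stood apart from the other members in level. It had 9 to 63 reads per library after 2 h, 8 to 39 after 1 h and 10 to 43 with ethanol, so it was not a constitutively abundant gene in these worms. In CPM these were 0.321, 1.20 and 2.78 (lowest, median and highest) after 2 h, 0.313, 0.603 and 1.28 after 1 h and 0.402, 1.47 and 2.17 with ethanol, and the groups overlapped. The log2 difference from ethanol was -0.95 at 1 h (SE 0.44, adjusted p = 0.198), lower in 5 of 6 batches, and passed the threshold with the batch as a block (-0.92, adjusted p = 0.00928). At 2 h it was -0.05 (SE 0.41, adjusted p = 0.941). Between 2 h and 1 h it was 0.90 (SE 0.45, adjusted p = 0.236), and with the batch as a block 0.85 (adjusted p = 0.0167). The handling of reads shared with close Hsp70 copies is not stated, and the counts are low, so the values of hsp-70 are uncertain.

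Both BiP genes were somewhat above ethanol at 2 h, within the overlap of the groups. hsp-3, the more abundant, had 663, 772 and 832 CPM after 2 h, 633, 748 and 852 CPM after 1 h and 584, 700.2 and 878 CPM with ethanol. hsp-4, the stress-responsive copy, had 267, 301 and 347 CPM after 2 h, 274, 289 and 329 CPM after 1 h and 261, 273 and 311 CPM with ethanol. At 2 h the log2 difference for hsp-3 was 0.09 (SE 0.08, adjusted p = 0.439, and adjusted p = 0.0140 with the batch as a block), higher in 5 of 6 batches. For hsp-4 it was 0.10 (SE 0.06, adjusted p = 0.242, and adjusted p = 0.0142 with the batch as a block), higher in 6 of 6 batches. At 1 h the values were 0.05 for hsp-3 and 0.05 for hsp-4 (adjusted p = 0.777 and adjusted p = 0.692). Within libraries the log2 ratio of hsp-4 to hsp-3 counts averaged -1.33 ± 0.10 after 2 h, -1.34 ± 0.11 after 1 h and -1.33 ± 0.16 with ethanol (SD, n = 6 each). The difference between 2 h and ethanol was 0.00 (exact permutation test over libraries, two-sided, p = 0.968).

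Among the mitochondrial genes, hsp-60 rose at 2 h, while hsp-6 did not pass the test. hsp-60 had 593, 662 and 679.8 CPM after 2 h, 545, 598 and 627 CPM after 1 h and 496, 560.4 and 629 CPM with ethanol. Every batch had more hsp-60 mRNA at 2 h than with ethanol, although the ethanol library of batch V, at 629 CPM, lay above the 2 h library of batch VII, at 593 CPM. The rise was 16.6% (95% interval 8.81 to 24.99%, log2 0.22, SE 0.05, adjusted p = 0.00234). At 1 h the difference was 5.34% (95% interval -1.71 to 12.9%, adjusted p = 0.407). Between 2 h and 1 h it was 10.7% (95% interval 3.30 to 18.7%), higher in 6 of 6 batches, and it passed only with the batch as a block (adjusted p = 0.0854 without and adjusted p = 0.000668 with it). hsp-6 had 934, 1003 and 1047 CPM after 2 h, 954, 1010.2 and 1052 CPM after 1 h and 979, 992 and 1049.8 CPM with ethanol. The groups overlapped, and the difference was -0.164% (95% interval -5.16 to 5.10%, adjusted p = 0.968) at 2 h and 0.861% (95% interval -4.19 to 6.18%, adjusted p = 0.901) at 1 h.

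The ratio of hsp-6 to hsp-60, which does not depend on how libraries are scaled, was lower at 2 h. Its log2 value was 0.54, 0.62 and 0.65 (lowest, median and highest) after 2 h, 0.73, 0.76 and 0.86 after 1 h and 0.66, 0.85 and 0.98 with ethanol. The 2 h libraries lay below all of the 1 h and all of the ethanol libraries. The difference was -0.23 between 2 h and ethanol and -0.16 between 2 h and 1 h, lower in 6 of 6 batches each. Both gave the lowest p possible in an exact permutation test (two-sided, p = 0.00216, and 0.0130 after Benjamini-Hochberg adjustment over 12 ratio tests). An exact sign-flip test over the batches gave both its smallest p, 0.0312, which was 0.0938 after the same adjustment and so not past the threshold. Between 1 h and ethanol the difference was -0.07 (exact permutation p = 0.199, adjusted 0.478). The log2 ratio of hsp-1 to daf-21 differed by 0.11 between 2 h and ethanol (exact permutation p = 0.119, adjusted 0.357) and by 0.10 between 2 h and 1 h (exact permutation p = 0.0693, adjusted 0.277). In each case 6 of 6 batches were higher, and the sign-flip test again gave its smallest p, 0.0312 (0.0938 after adjustment). For hsp-110 over hsp-1 the difference at 2 h was -0.05 (exact permutation p = 0.487).

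**Figure D2:**
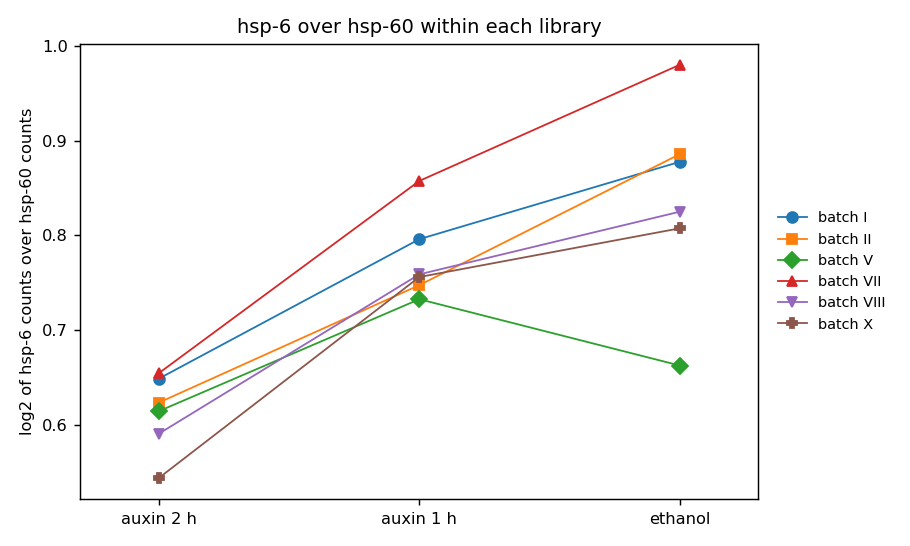
Log2 ratio of hsp-6 to hsp-60 read counts within each library, by group, with the 3 libraries of a batch joined by a line. The 2 h libraries lie between 0.54 and 0.65, below the 1 h libraries at 0.73 to 0.86 and the ethanol libraries at 0.66 to 0.98.

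Levels of different genes were compared per base of gene length, as CPM per 1000 bases averaged over the 18 libraries. hsp-1 was highest at 1615, followed by daf-21 at 1231, hsp-6 at 408, hsp-60 at 284, hsp-3 at 275, hsp-110 at 205, hsp-4 at 132 and hsp-70 at 0.551. The neighbours hsp-60 (234 to 321) and hsp-3 (218 to 328) overlapped over most of their range. hsp-1 (1316 to 1851) and daf-21 (1130 to 1336) met at their edges, as did hsp-3 and hsp-110 (187 to 220.3). The ranges of the other neighbours did not overlap.

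Intron reads moved far more than mRNA. Summed over the introns of each gene, 7 of 7 members that passed the filter were higher than with ethanol at 2 h, and 7 of 7 at 1 h. The groups did not overlap, and each rise held in 6 of 6 batches. How many of all hosts were free of overlap was not counted. Scaling of libraries on the intron counts themselves turned hsp-1 at 2 h to -0.19 on the log2 scale. It also left hsp-3 at 2 h at 0.38 (adjusted p = 0.0985), so that 5 of 7 were called. That scaling takes the general rise of the host sums out, as their median log2 change was then -0.04 at 2 h, in place of 1.73. At 1 h the median of all hosts was 0.03 in place of 1.52. Of all hosts, 2850 were then called higher and 2926 lower at 2 h. For single introns it takes part of the rise out, with a median of 0.91 at 2 h in place of 3.33. The rise was general among the hosts that passed the filter. By edgeR 75.6% of 6795 host genes were called at 2 h (74.9% higher and 0.692% lower), and 70.6% at 1 h (70% higher and 0.633% lower). The filter can admit a host through its auxin reads alone, so these shares hold only for hosts that passed. Without a filter, 6280 of 17139 hosts were called at 2 h and 5435 at 1 h, with median log2 changes of 0.81 and 0.56. The median log2 change of the 7 genes was 3.48 at 2 h and 3.13 at 1 h, beside 1.73 and 1.52 over all hosts tested. The largest adjusted p among the 7 was 4.37e-11 at 2 h and 2.00e-11 at 1 h. Scaled to the reads of their own host gene, 7 of 7 were also higher at both times, where 72.9% of hosts were called at 2 h (72.6% higher, 0.348% lower) and 71.5% at 1 h (71.0% higher, 0.544% lower). The median log2 change of the 7 was then 3.39 at 2 h and 3.08 at 1 h, beside 1.90 and 1.63 over all hosts tested.

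**Figure D3:**
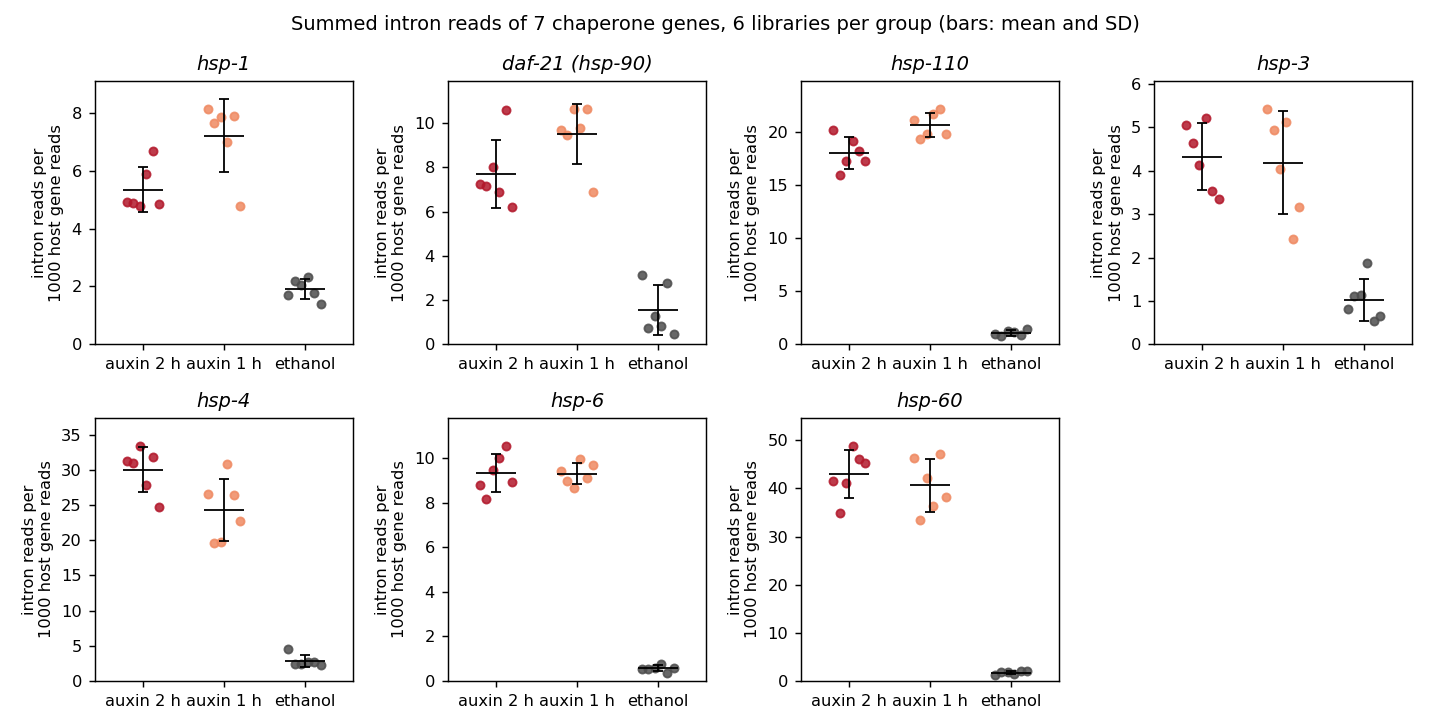
Summed intron reads of each gene per 1000 reads of that gene, in the 6 libraries of each group, with the mean and SD as bars. Each auxin library lies above each ethanol library in all 7 panels, from hsp-3 (3.35 to 5.22 after 2 h, 0.542 to 1.87 with ethanol) to hsp-60 (34.8 to 48.8 after 2 h, 1.22 to 2.14 with ethanol).

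The mitochondrial genes and hsp-110 had the steepest rises. The introns of hsp-60 held 496, 661 and 723 reads (lowest, median and highest library) after 2 h, 413, 560 and 783 after 1 h and 15, 23.5 and 30 with ethanol. Scaled for depth, that is a rise of 28.7-fold (23.6 to 35.0) at 2 h and 24.6-fold (20.2 to 29.98) at 1 h, with 95% intervals in parentheses here and below. The introns of hsp-110 held 177, 242.5 and 246 reads after 2 h, 236, 269 and 357 after 1 h and 10, 14 and 19 with ethanol, a rise of 17.6-fold (14.4 to 21.5) at 2 h and 20.0-fold (16.42 to 24.4) at 1 h. In both genes every auxin library lay far above the highest ethanol library. For hsp-6 the reads were 175, 204.5 and 249 after 2 h, 191, 226.5 and 277 after 1 h and 8, 14 and 17 with ethanol, a rise of 16.3-fold (13.5 to 19.7) at 2 h and 16.46-fold (13.6 to 19.9) at 1 h. The hsp-6 mRNA of the same libraries had a 95% interval of -5.16 to 5.10% around ethanol at 2 h.

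hsp-4 came next, and hsp-3, daf-21 and hsp-1 had smaller changes. hsp-4 introns held 163, 204.5 and 231 reads after 2 h, 139, 175.5 and 214 after 1 h and 11, 17 and 33 with ethanol, a rise of 11.2-fold (8.96 to 13.95) at 2 h and 8.77-fold (7.01 to 10.98) at 1 h. Its paralog hsp-3 had fewer intron reads than hsp-4 on auxin despite a higher mRNA level, at 59, 72 and 91 after 2 h, 37, 77 and 117 after 1 h and 8, 16 and 28 with ethanol. The rise of hsp-3 was 4.42-fold (3.29 to 5.95) at 2 h, not past the threshold when scaled on intron counts as given above, and 4.22-fold (3.14 to 5.67) at 1 h. The cytosolic pair started from higher intron counts with ethanol, in genes with far more mRNA. Per 1000 host reads with ethanol, daf-21 was at 0.480 to 3.11, hsp-1 at 1.37 to 2.34 and hsp-4 at 2.21 to 4.57. The introns of daf-21 held 455, 494 and 792 reads after 2 h, 487, 764 and 1139 after 1 h and 27, 89 and 273 with ethanol, a rise of 4.86-fold (3.48 to 6.80) at 2 h and 6.26-fold (4.47 to 8.76) at 1 h. Intron 2 of daf-21, uneven between ethanol libraries, held 508 of the 730 ethanol reads. Introns 3 and 4 of daf-21 rose 24.7-fold and 7.21-fold at 2 h. For hsp-1 the reads were 330, 403.5 and 524 after 2 h, 331, 578.5 and 915 after 1 h and 79, 154.5 and 211 with ethanol, a rise of 2.98-fold (2.46 to 3.60) at 2 h and 3.94-fold (3.25 to 4.77) at 1 h.

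hsp-70 gave no intron result. Its 2 introns held 1 read in all 18 libraries, in a 2 h library, so they did not pass the filter. A count of 3, taken as the floor of a library, equals 0.0985 to 0.164 CPM at these depths. Intron reads of hsp-70 were therefore not detectable at this depth, beside host mRNA of 8 to 63 reads per library.

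Every intron that could be tested was higher on auxin when scaled by gene reads, and of the 13 described singly below 4 turned at 2 h when scaled on intron counts, namely introns 1 (-0.94) and 3 (-0.06) of hsp-1, intron 4 of hsp-3 (-0.43) and intron 2 of daf-21 (-1.05). Of the 26 member introns that passed the filter, 26 were higher at 2 h and 26 at 1 h by edgeR, where 86.5% of 15325 introns were called at 2 h (85.1% higher and 1.37% lower) and 84.1% at 1 h (83.2% higher and 0.927% lower). The filter can admit an intron through its auxin reads alone, so a rise is partly built in where ethanol reads are few. Intron 1 of hsp-110 had 3 ethanol reads in all, intron 5 of hsp-4 had 5 and intron 2 of hsp-6 had 9. The limit is not confined to these. In ethanol, intron 3 of hsp-60 had at most 10 reads in any library, intron 1 of hsp-4 at most 7 and intron 4 of hsp-110 at most 6. The count of 26 of 26 is therefore partly fixed by the filter. Without a filter, 26110 of 82049 introns were called at 2 h and 23803 at 1 h, with median log2 changes of 1.15 and 0.92. In 25 of 26 member introns the libraries did not overlap with ethanol at either time, and the exception was intron 2 of daf-21. How many of all introns tested were free of overlap was not counted. The median log2 change of the 26 was 3.66 at 2 h and 3.47 at 1 h, beside 3.33 and 2.93 over all introns tested. Given below for each gene are the intron with the most reads and the one with the largest change at 2 h, with positions on WBcel235.

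In hsp-60, intron 3 is both. It is the longest member intron (chromosome III, 1621820 to 1623058, 1239 bases) and held 257, 328.5 and 372 reads after 2 h, 226, 297.5 and 419 after 1 h and 3, 7 and 10 with ethanol. Its log2 change was 5.64 at 2 h (SE 0.19, adjusted p = 4.32e-33) and 5.48 at 1 h (SE 0.19, adjusted p = 3.76e-32). The other introns of hsp-60 rose by log2 4.99 (intron 4), 4.19 (intron 1) and 2.84 (intron 5) at 2 h. In hsp-6 it is intron 2 (chromosome V, 4825988 to 4826035, 48 bases), with 58, 74 and 89 reads after 2 h, 70, 86 and 103 after 1 h and 0 to 3 with ethanol. Its 9 ethanol reads in all give a pooled ratio of 50.6 at 2 h (exact 95% interval 26.4 to 111, counting error only) and 54.4 at 1 h (28.4 to 119.7). Introns 1 and 3 of hsp-6 rose by log2 4.17 and 3.18 at 2 h.

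Intron 1 of hsp-110 had the largest fitted change among the 26 (chromosome III, 8446735 to 8446782, 48 bases). It held 36, 49.5 and 58 reads after 2 h and 50, 59 and 77 after 1 h, against 3 reads in the 6 ethanol libraries together. The pooled ratio was 99.8 at 2 h (exact 95% interval 33.8 to 487, counting error only) and 115 at 1 h (39.0 to 560.1). Its most abundant intron, intron 4 (8445389 to 8445443, 55 bases), held 49, 58.5 and 74 reads after 2 h, 59, 73.5 and 95 after 1 h and 1, 3.5 and 6 with ethanol. That is a log2 rise of 4.09 at 2 h (SE 0.24, adjusted p = 5.41e-23) and 4.27 at 1 h. Introns 2, 3 and 5 of hsp-110 rose by 3.77, 3.57 and 3.87 at 2 h.

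In hsp-4, intron 1, the one outside the coding part (chromosome II, 7352519 to 7352579, 61 bases), had the most reads, with 68, 88.5 and 94 after 2 h, 37, 64 and 95 after 1 h and 4, 5 and 7 with ethanol. Its log2 change was 4.12 at 2 h (SE 0.24, adjusted p = 2.57e-23) and 3.58 at 1 h. Intron 5 (7351118 to 7351163, 46 bases) held 15, 24 and 32 reads after 2 h, 11, 21.5 and 25 after 1 h and 0 to 2 with ethanol. Its pooled ratio was 29.8 at 2 h (exact 95% interval 12.5 to 93.2, counting error only) and 23.1 at 1 h (9.61 to 72.3). Intron 6 had the smallest rise in hsp-4, by log2 2.39 at 2 h. hsp-3 had smaller rises in each of its 3 introns than intron 1 of hsp-4, but the introns of the 2 genes overlapped. Intron 2 of hsp-3, at log2 2.50 at 2 h, was close to intron 6 of hsp-4 at 2.39. Intron 4 of hsp-3 (chromosome X, 6089970 to 6090072, 103 bases) held 18, 36.5 and 48 reads after 2 h, 19, 30.5 and 56 after 1 h and 4, 5.5 and 17 with ethanol, a log2 rise of 1.98 at 2 h (SE 0.28, adjusted p = 5.12e-09). Intron 2 of hsp-3 (6091531 to 6091576, 46 bases) held 8, 10.5 and 14 reads after 2 h, 5, 15 and 22 after 1 h and 0, 2 and 4 with ethanol, a rise of 2.50 at 2 h (SE 0.42, adjusted p = 2.33e-07). Scaled on intron counts, intron 2 of hsp-3 changed by log2 0.16 (adjusted p = 0.769) at 2 h and 0.78 (adjusted p = 0.112) at 1 h.

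The introns of daf-21 differed widely among themselves. Intron 3 (chromosome V, 14687066 to 14687113, 48 bases) held 111, 127 and 155 reads after 2 h, 119, 179 and 314 after 1 h and 1, 4.5 and 13 with ethanol, a log2 rise of 4.63 at 2 h (SE 0.24, adjusted p = 2.89e-25). Intron 4 (14688100 to 14688157, 58 bases) held 158, 216.5 and 277 reads after 2 h, 236, 335 and 444 after 1 h and 21, 33 and 40 with ethanol, a rise of 2.85 at 2 h (SE 0.14, adjusted p = 5.72e-26). Intron 2 (14686314 to 14686360, 47 bases), singled out after its values were seen, was uneven between ethanol libraries. It held 119, 171.5 and 397 reads after 2 h, 132, 255 and 381 after 1 h and 5, 54 and 226 with ethanol. The ethanol libraries of batches I and VIII had 226 and 147 of these reads, and those of the other 4 batches 5 to 76. In batch I it had 2.24 reads per 1000 daf-21 reads after 2 h, against 2.58 with ethanol. Its log2 rise was 1.39 at 2 h (SE 0.30, adjusted p = 2.26e-05) and 1.52 at 1 h (SE 0.29, adjusted p = 4.76e-06).

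In hsp-1, intron 1 (chromosome IV, 17279169 to 17279219, 51 bases) held 285, 353 and 476 reads after 2 h, 278, 484 and 777 after 1 h and 72, 141.5 and 199 with ethanol, a log2 rise of 1.49 at 2 h (SE 0.14, adjusted p = 2.40e-14). Intron 3 (17280883 to 17280936, 54 bases) held 45, 50.5 and 75 reads after 2 h, 53, 94.5 and 139 after 1 h and 6, 7.5 and 27 with ethanol, a rise of 2.34 at 2 h (SE 0.23, adjusted p = 6.41e-14). Both introns of hsp-1 were higher still at 1 h, by 1.84 and 3.05 over ethanol.

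**Figure D4:**
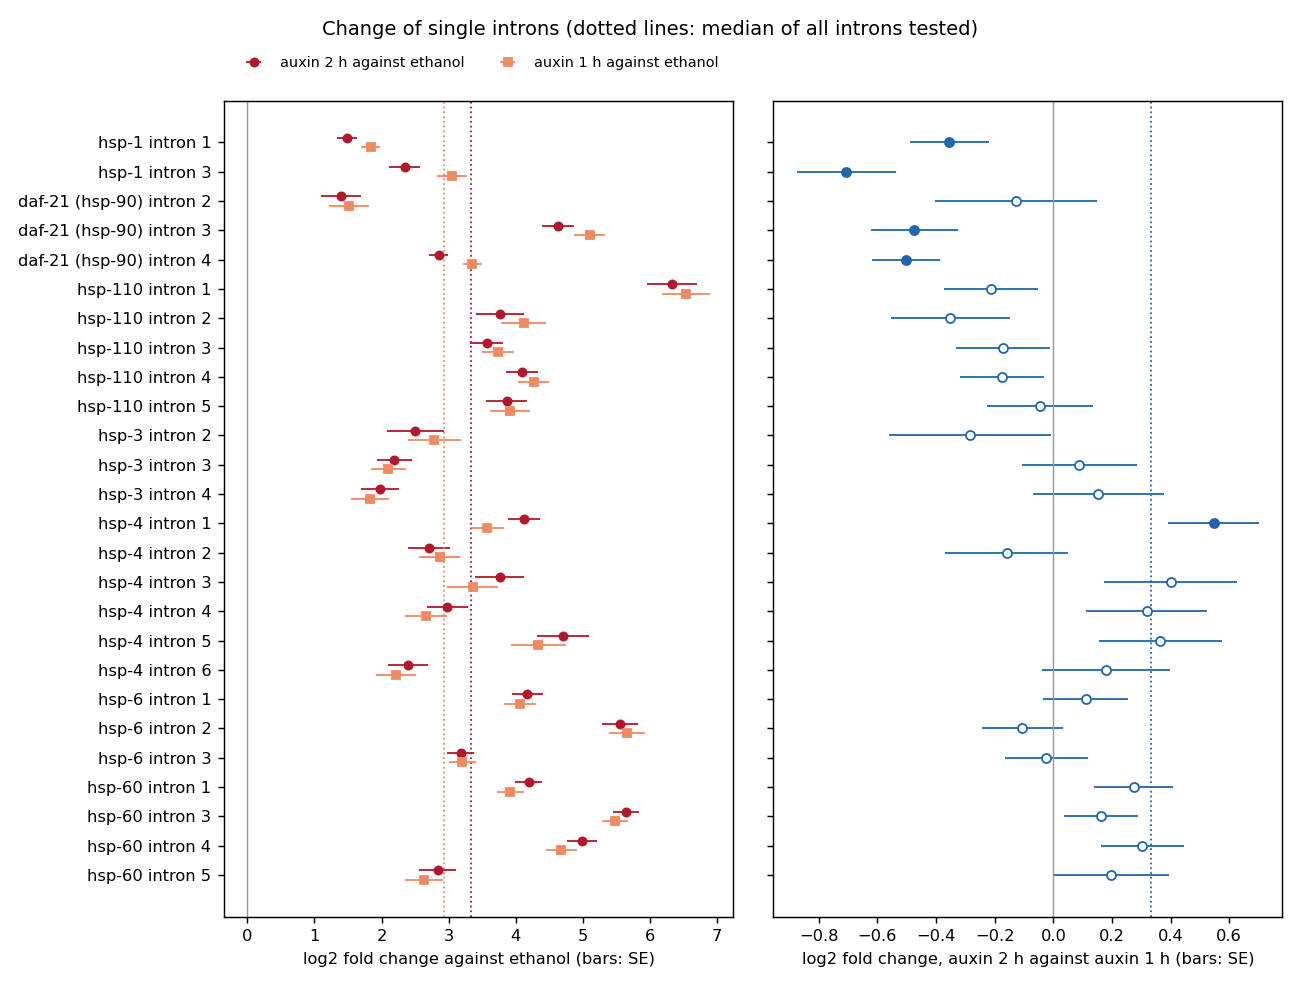
Log2 fold change with its SE for the 26 introns tested, against ethanol at 2 h and 1 h (left) and between 2 h and 1 h (right, filled where the adjusted p is under 0.05), with dotted lines at the median of all introns tested. On the left the 2 h values run from 1.39 for intron 2 of daf-21 to 6.33 for intron 1 of hsp-110, and on the right the introns of hsp-1, daf-21 and hsp-110 lie below 0 and those of hsp-60 above it (intron 3 of hsp-60 is at -0.18 when scaled on intron counts).

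Between 2 h and 1 h, hsp-4 and hsp-1 went opposite ways. The summed introns of hsp-4 rose further, by log2 0.35 (SE 0.12, adjusted p = 0.0274), in 6 of 6 batches, and when scaled on intron counts the value was 0.08 (adjusted p = 0.623). Those of hsp-1 changed by -0.40 (SE 0.13, adjusted p = 0.0162), lower in 5 of 6 batches. Thus 1 of 7 was higher and 1 of 7 lower, where 31.2% of all hosts were called, 30% higher and 1.27% lower. With the batch as a block, where 38.9% of all hosts were called (37.1% higher and 1.82% lower), the count was 4 of 7, as hsp-60 was also higher by reads scaled to genes (0.23, adjusted p = 0.0210, and adjusted p = 0.114 without the block, and -0.05 when scaled on intron counts) and daf-21 also lower (-0.37, adjusted p = 0.0385, and adjusted p = 0.223 without it). Relative to host reads, hsp-4 was again higher and hsp-1 lower, where 37.2% of hosts were called (36.0% higher, 1.15% lower). The median of the 7 genes was -0.01, beside 0.25 over all hosts tested.

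These later calls depended on single batches. The count of 2 genes fell to 0 without batch II or batch V, and to 1 without batch I or batch VIII. For hsp-1 the library of batch X at 1 h stood apart, with 4.77 intron reads per 1000 hsp-1 reads against 6.98 to 8.12 in the other 1 h libraries, and without batch X the change was -0.50 (adjusted p = 0.000350). Among single introns, 1 of 26 was higher at 2 h than at 1 h and 4 were lower by edgeR (31.2% of all introns called, 30.2% higher and 1.08% lower). The higher one was intron 1 of hsp-4 (0.55, SE 0.16, adjusted p = 0.00618), at 0.21 (adjusted p = 0.309) when scaled on intron counts. The lower ones were introns 1 (-0.36, adjusted p = 0.0380) and 3 (-0.71, adjusted p = 0.00119) of hsp-1 and introns 3 (-0.47, adjusted p = 0.0120) and 4 (-0.50, adjusted p = 0.000915) of daf-21. The count of 5 became 2 without batch V and 3 without batch VII.

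Set against the coverage of the host gene, the introns reached quite different levels. Intron coverage is the number of intron reads per intron base as a percentage of gene reads per base of gene length. hsp-4 was at 22.01 ± 2.31% after 2 h, 17.8 ± 3.23% after 1 h and 2.06 ± 0.642% with ethanol (SD, n = 6 each, as below). hsp-110 was at 16.3 ± 1.36% after 2 h, 18.8 ± 1.05% after 1 h and 0.965 ± 0.233% with ethanol. daf-21 was at 13.2 ± 2.64% after 2 h, 16.38 ± 2.36% after 1 h and 2.63 ± 1.95% with ethanol. These 3 genes lay above the median of all hosts tested, which was 8.27% after 2 h, 6.82% after 1 h and 1.93% with ethanol, in both auxin groups. The Hsp70 genes hsp-6 and hsp-1 did so too, with 12.95 ± 1.20% after 2 h, 12.9 ± 0.663% after 1 h and 0.785 ± 0.188% with ethanol for hsp-6. For hsp-1 the values were 10.5 ± 1.54% after 2 h, 14.2 ± 2.48% after 1 h and 3.77 ± 0.701% with ethanol. hsp-60, despite its large fold change, was below that median, at 3.16 ± 0.364% after 2 h, 2.99 ± 0.408% after 1 h and 0.128 ± 0.0274% with ethanol. hsp-3 was below it as well, at 2.99 ± 0.539% after 2 h, 2.90 ± 0.824% after 1 h and 0.705 ± 0.332% with ethanol. The placing against all hosts turned with the measure. By intron reads per 1000 host reads, not scaled for length, the median of the 7 genes was 9.29 after 2 h and 9.60 after 1 h. Over all hosts tested these medians were 51.3 and 41.4. How reads across an exon border were counted is not stated, and the introns of hsp-60 are longer than most of the others, so levels of short and long introns may not be comparable.

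Around the 8 genes, partners of Hsp70 and Hsp90 were lower more often than higher at 2 h. Of 13 co-chaperones tested, 7 fell and 0 rose, beside 20.1% lower and 14.5% higher over all genes. They include chn-1, a ubiquitin ligase that binds Hsp70 (log2 -0.35, adjusted p = 0.000237 by edgeR), daf-41, the p23 partner of Hsp90 (-0.21, adjusted p = 0.00146), and bag-1, an exchange factor (-0.20, adjusted p = 0.00289). Of 29 J-domain genes tested, 12 fell and 1 rose, among them dnj-15 (-0.39, adjusted p = 0.000197), dnj-28 (-0.38, adjusted p = 1.25e-05) and dnj-23 (-0.30, adjusted p = 0.00466), which fell. The median log2 change was -0.14 for the co-chaperones and -0.09 for the J-domain genes, beside 0.07 over all genes. At 1 h, 1 co-chaperone and 2 J-domain genes fell, beside 6.93% of all genes. With the batch as a block, the co-chaperones had 0 higher and 8 lower at 2 h, beside 30.2% higher and 26.5% lower over all genes. At 1 h the block gave 1 higher and 4 lower for the co-chaperones and 1 higher and 9 lower for the J-domain genes, beside 12.5% higher and 18.2% lower over all genes.

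Genes of other folding systems were called in both directions at 2 h, where 14.5% of all genes were higher and 20.1% lower. In CCT and prefoldin, the endoplasmic reticulum and mitochondria the counts were near or below these shares. Of 14 subunits of the CCT chaperonin and prefoldin, 1 rose, cct-7 (log2 0.17, adjusted p = 0.0196 by edgeR), and 3 fell, among them pfd-4 (-0.17, adjusted p = 0.0291) and pfd-5 (-0.15, adjusted p = 0.00198). Of 20 genes of folding in the endoplasmic reticulum and its stress response, 1 rose, dnj-20, a J-domain protein (0.19, adjusted p = 0.0365), and 3 fell, among them the stress sensors atf-6 (-0.20, adjusted p = 0.00972) and pek-1 (-0.19, adjusted p = 0.0359). Of 15 mitochondrial genes, 2 rose, the proteases spg-7 (0.14, adjusted p = 0.0198) and ymel-1 (0.13, adjusted p = 0.0483), and 1 fell, timm-23 of the import channel (-0.24, adjusted p = 0.000181). Among 9 small heat shock proteins tested, 3 rose and 0 fell, namely hsp-12.1 (0.42, adjusted p = 0.0230), hsp-17 (0.27, adjusted p = 0.00584) and hsp-12.2 (0.16, adjusted p = 0.0154), all higher. Of 7 further Hsp70, Hsp90 and chaperonin relatives tested, 2 fell, T24H7.2 (-0.19, adjusted p = 0.000879) and stc-1 (-0.16, adjusted p = 0.0151). Of 6 regulators of the heat shock response, 1 fell, hsf-1, the main activator of heat shock genes (-0.20, adjusted p = 0.0343). The lists share some genes with each other. With the batch as a block, where 30.2% of all genes were higher and 26.5% lower, the counts were 6 higher and 0 lower for the small heat shock proteins, 3 higher and 2 lower for the relatives, 4 higher and 16 lower for the J-domain genes, 2 higher and 6 lower for CCT and prefoldin, 6 higher and 9 lower for the endoplasmic reticulum, 3 higher and 1 lower for mitochondria and 1 higher and 1 lower for the regulators.

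Markers of tissues are counted at 2 h beside the same 14.5% higher and 20.1% lower over all genes. Of 10 germ cell markers, 4 fell and 0 rose, and their sum was 2834 to 3330.5 CPM after 2 h, 3199 to 3524 CPM after 1 h and 3273 to 3732 CPM with ethanol. Of 5 oocyte markers 3 fell and 0 rose, with sums of 1464 to 2180.2 CPM after 2 h, 1846 to 2480.2 CPM after 1 h and 1797 to 2697 CPM with ethanol. Of 4 body wall muscle markers 2 rose, with sums of 5538 to 7138 CPM after 2 h, 5287 to 6468 CPM after 1 h and 4866 to 6151 CPM with ethanol. Of 4 neuron markers 2 rose, and 0 of 5 intestine, 0 of 3 hypodermis and 0 of 5 sperm markers were called. With the batch as a block (30.2% of all genes higher, 26.5% lower), 5 of 5 intestine and 4 of 4 muscle markers were higher, and 6 of 10 germ cell and 5 of 5 oocyte markers lower. The block also called 3 of 4 neuron, 1 of 3 hypodermis and 1 of 5 sperm markers higher. At 1 h without the block, 2 of 10 germ cell markers were higher and 2 lower, beside 3.62% higher and 6.93% lower over all genes. The part of these shifts in the rise of hsp-60 was not tested.

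Likeness of pattern is given over the 18 libraries as a description, since the points share batches and depth. The highest correlation between members was that of hsp-1 and hsp-3 (Pearson r of log2 CPM = 0.819), and hsp-110 followed daf-21 (r = 0.771) and hsp-1 (r = 0.749). The lowest was that of hsp-6 and hsp-70 (r = -0.558), while hsp-6 and hsp-60 had r = 0.334 and hsp-3 and hsp-4 r = 0.646. Over 13968 other genes, the most alike were atp-1 (r = 0.925) and sax-7 (r = 0.911) for hsp-1, Y105E8A.11 (r = 0.830) and acs-13 (r = 0.787) for daf-21, ced-5 (r = 0.873) and hcp-1 (r = 0.866) for hsp-110, and gcy-18 (r = 0.825) and lyst-1 (r = 0.807) for hsp-70. They were T28C6.7 (r = 0.925) and dpy-22 (r = 0.893) for hsp-3 and ckb-2 (r = 0.875) and fbxa-182 (r = 0.874) for hsp-4. For the mitochondrial genes they were eef-2 (r = 0.890) and C17B7.8 (r = 0.835) for hsp-6, and asb-2 (r = 0.926) and C10G8.8 (r = 0.919) for hsp-60.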

How the data were processed

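Reads per gene and per intron were analysed as deposited counts. Per the labels, RNA was poly-A selected and libraries were stranded, and the authors name the gene table they deposited as reverse-strand counts of protein-coding genes. The submitters' processing notes name Trimmomatic, cutadapt, STAR, SAMtools, Picard, featureCounts, limma and edgeR. The build, the strand setting of the intron table and the handling of reads across exon borders are not given in the sources used here. Of the 106818 intervals, 98.2% equal introns of WBcel235, from which positions and intron numbers were taken.

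Each table was fitted with edgeR 4.0.16 (R 4.3.3, quasi-likelihood test, TMM factors, filterByExpr with a minimum count of 10) in 1 model over 18 libraries, with Benjamini-Hochberg adjustment over all features and a threshold of 0.05. Introns, and introns summed per host gene, were scaled by the gene table. Errors are standard errors from the test, and 95% intervals are 1.96 standard errors wide on each side. The scripts were tested on simulated data. Alternatives were DESeq2 1.42.0, library sizes only, no filter, 12 libraries, TMM on introns, host counts as an offset, the batch as a block and each batch left out.

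The batch numbers pair the libraries: deviations from the group means correlated at 0.146 to 0.674 in all 18 same-batch pairs, against -0.522 to 0.386 in 90 pairs differing in batch and group. The members and gene lists were chosen with earlier results of these data known. Named are all 8 members, the 2 introns per member with the most reads and the largest change at 2 h, up to 3 called genes of each list with the largest change at 2 h and the 2 genes most alike to each member. Exact intervals of pooled ratios and floors on counts cover counting error only, while the intervals from edgeR also hold the spread between libraries.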

Additional observations from a re-analysis of the deposited data

Results flagged for a closer look

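In 5 of 45 groups of 6 libraries, 1 library lay apart from the others by Dixon's test at the 95% level, which chance gives in about 1 of 20 groups. For hsp-1 the auxin 1 h library of batch X had 4.77 intron reads per 1000 hsp-1 reads, the lowest of its group, and the same library was lowest for daf-21, at 6.91 per 1000 daf-21 reads. For hsp-4 the ethanol library of batch I was highest, at 4.57 intron reads per 1000 hsp-4 reads. In the mRNA counts the auxin 2 h library of batch VII was lowest for hsp-60, at 593 CPM, and the ethanol library of batch I was highest for hsp-6, at 1049.8 CPM.

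The response of summed introns differed between the 2 h and 1 h times for hsp-1, by a log2 value of -0.40, and for hsp-4, by 0.35, each by edgeR's test of the difference itself.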

How the results depend on the processing

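With the batch as a replicate block, genes called numbered 4286 at 1 h, 7930 at 2 h and 4566 between 2 h and 1 h, against 1474, 4836 and 963 without it, and members called numbered 1, 4 and 2, against 0, 1 and 0. Members with changed summed introns between 2 h and 1 h numbered 4 with the block, against 2. The block, as a sign-flip test, brought the unadjusted p of the hsp-1 over daf-21 ratio past the threshold at 2 h (0.11) and between 2 h and 1 h (0.10), and after adjustment over 12 ratios 0 passed (smallest adjusted p = 0.0938, also for hsp-6 over hsp-60). It made 28 of 90 fold changes of named genes and 2 of 60 of introns and their sums pass the threshold and ended 0 of their calls.

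TMM factors from intron counts, which move the median of all introns by over 2 log2 units at both times against ethanol, turned hsp-1 intron 1 (-0.25 at 1 h, -0.94 at 2 h), hsp-1 intron 3 (-0.0627 at 2 h), hsp-3 intron 4 (-0.24 at 1 h, -0.43 at 2 h, -0.19 between 2 h and 1 h), daf-21 intron 2 (-0.58 at 1 h, -1.05 at 2 h) and hsp-60 intron 3 (-0.18 between 2 h and 1 h). The same scaling turned the summed introns of hsp-1 at 2 h (-0.19) and of hsp-3 (-0.21) and hsp-60 (-0.0518) between 2 h and 1 h. It ended the calls of hsp-3 intron 2 at both times, of the hsp-3 sum at 2 h and of hsp-4 intron 1 and the hsp-4 sum between 2 h and 1 h. Between 2 h and 1 h it gave 1976 introns called in place of 4787, 1301 hosts in place of 2122, 10 member introns in place of 5 and 4 members in place of 2. Without a filter, 23803 of 82049 introns were called at 1 h and 26110 at 2 h, against 12895 and 13255 of 15325 with it. These are more introns but a smaller share of those tested.

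Values near 0 changed sign: mog-7 at 1 h (-0.000730 with DESeq2, -0.00996 with library sizes only), hsp-6 (0.00648) and daf-21 (0.00623) at 2 h without a filter, hsp-110 between 2 h and 1 h (-0.00314 with DESeq2, -0.00741 with library sizes only), the summed introns of hsp-6 between 2 h and 1 h relative to host counts (0.00371), and the median of the hsp-4 over hsp-3 ratio at 1 h (0.0225).

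With each batch left out in turn, genes called ranged from 821 to 1480 at 1 h and from 351 to 1084 between 2 h and 1 h, introns called between 2 h and 1 h from 3190 to 4282, member introns from 2 to 5 and members by summed introns from 0 to 2. Log2 fold changes ranged at 1 h from -5.81e-05 to 0.0437 for hsp-6, -0.00629 to 0.0619 for pfd-4 and -0.0112 to 0.0382 for mog-7. At 2 h they ranged from -0.0166 to 0.0164 for hsp-6, -0.24 to 0.15 for hsp-70 and -0.0184 to 0.0282 for daf-21. Between 2 h and 1 h they ranged from -0.0137 to 0.0291 for hsp-110, -0.00412 to 0.0410 for hsp-12.2 and -0.0692 to 0.0139 for the summed introns of hsp-6. Differences in log2 ratio ranged for hsp-4 over hsp-3 from -0.0297 to 0.0154 at 1 h, -0.0208 to 0.0351 at 2 h and -0.0106 to 0.0333 between 2 h and 1 h. For hsp-6 over hsp-60 they ranged from -0.0921 to -0.0504 at 1 h (unadjusted p past the threshold without batch V). For hsp-1 over daf-21 they ranged from -0.00653 to 0.0311 at 1 h and 0.0872 to 0.108 between 2 h and 1 h, and for hsp-110 over hsp-1 from -0.0378 to 0.00791 at 1 h. Where no construction is named, the cause was not tested. Introns with fewer than about 10 ethanol reads in all, and hsp-70, are limited by depth.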
